A study of Mus musculus with 6 samples.

Results

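The 10 genes described here encode enzymes that modify and crosslink collagen: the lysyl oxidase family (Lox, Loxl1, Loxl2, Loxl3 and Loxl4), the lysyl hydroxylases (Plod1, Plod2 and Plod3) and the catalytic subunits of prolyl 4-hydroxylase (P4ha1 and P4ha2). They were taken by gene symbol from a table of 47729 genes, and each of the 10 symbols matched 1 row. RNA was sequenced from the mouse mammary carcinoma lines 4T1 and 4TO7, both of BALB/c origin, with 3 libraries per line from untreated cells grown in medium with serum. Both groups carry no engineered allele or agent in the labels, each is an established line, and the labels do not state that a line's 3 libraries came from separate cultures, so p-values measure the spread between these libraries, which may be technical.

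As background, newly made collagen chains are hydroxylated in the endoplasmic reticulum before they fold. Prolyl 4-hydroxylase, built from P4ha subunits and P4hb, makes the hydroxyproline that stabilises the triple helix, and the Plod enzymes make hydroxylysine, which carries sugars and takes part in crosslinks. After secretion, the copper-dependent lysyl oxidases turn lysine and hydroxylysine into reactive aldehydes that start the crosslinks of collagen and elastin. Lox, Loxl2, Plod2, P4ha1 and P4ha2 are widely studied in breast cancer as genes induced by hypoxia-inducible factor (HIF) that stiffen the matrix around tumours.

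The libraries held 33605566 to 39072639 reads assigned to genes, and all values below are normalised read counts, gene reads divided by 1 size factor per library. Across genes the libraries correlated at r = 0.988 to 0.99 within 4T1 and 0.978 to 0.993 within 4TO7, against 0.809 to 0.848 between the lines. The epithelial markers Krt8, Krt18, Epcam and Cdh1 summed to 138734 to 156360 in 4T1 libraries and 25823 to 42449 in 4TO7 libraries. The 4TO7 sum was almost all Krt8 and Krt18, which were 2.20-fold and 4.64-fold higher in 4T1. Epcam had 16980 ± 1871 in 4T1 and 23.7 ± 9.25 in 4TO7. Cdh1 had 19352 ± 2121 in 4T1 and 170 ± 44.6 in 4TO7. Of 6 fibroblast markers, Lum and Thy1 had 0 reads in all 6 libraries, and the summed list, mostly Pdgfra, ranged from 590 to 1372 in 4T1 and from 1721 to 7522 in 4TO7. Of 4 leukocyte markers, Adgre1 and Cd3e had 0 reads throughout, with summed levels of 229 to 435 in 4T1 and 91.7 to 156 in 4TO7, mostly Cd68. The 4 endothelial markers summed to 11.96 to 18.2 in 4T1 and 9.43 to 14.0 in 4TO7. The part of these markers in the differences below was not tested. In RNA from whole cultures, a smaller share of expressing cells and less RNA per cell cannot be told apart.

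Among the enzymes with abundant reads, Loxl4, Plod1 and Loxl3 differed most between the lines. 4T1 had 21.9 times the Loxl4 level of 4TO7, whereas 4TO7 had 4.66 times the Loxl3 level and 5.05 times the Plod1 level of 4T1. P4ha2 was 1.80-fold higher in 4T1. Loxl1, with few reads, was also higher in 4T1, by 26.3-fold. Plod2, Plod3 and P4ha1 were abundant in both lines and did not pass the test, and Lox and Loxl2 were almost unread in both. The comparison used limma on log2(value + 1) over the 14276 genes that reached a normalised count of 10 in 3 or more libraries, with Benjamini-Hochberg adjustment over all of them and a threshold of 0.05. Of the 10 enzymes, 8 passed that filter on low values. Of those, 3 were called for 4T1 (Loxl1, Loxl4 and P4ha2) and 2 for 4TO7 (Loxl3 and Plod1). Over all genes tested 49% were called, 25.1% higher in 4T1 and 23.9% higher in 4TO7, so the number of enzymes called is near the background of this comparison, and the sizes and directions of the single genes carry the description.

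**Figure D1:**
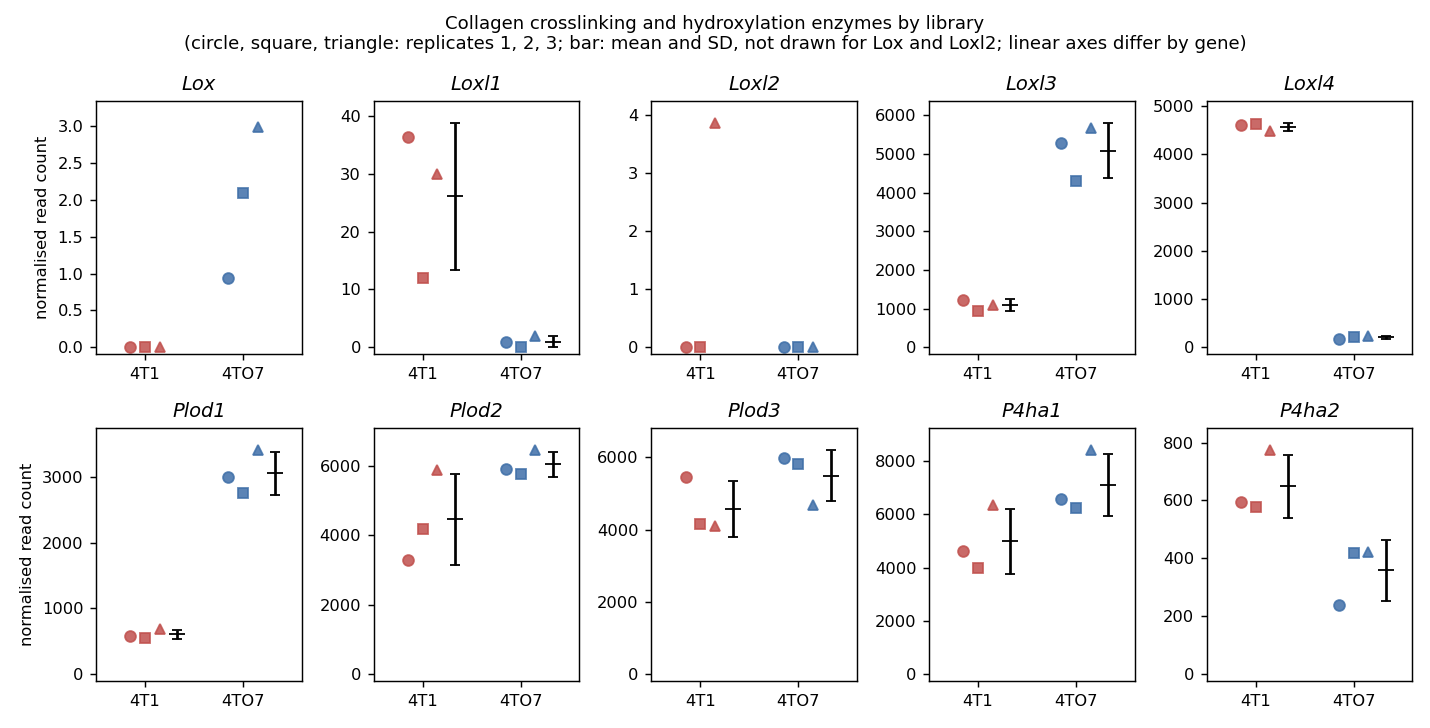
Normalised read counts (linear y axes, each with its own range) of the 10 enzymes in the 3 libraries of 4T1 and the 3 of 4TO7, with the mean and SD beside the points of the 8 tested genes. Loxl4 lay between 4477 and 4616 in 4T1 and between 168 and 240 in 4TO7, Loxl3 and Plod1 showed the opposite order with no overlap, and Lox and Loxl2 stayed below 4 in all libraries.

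Loxl4 encodes a lysyl oxidase with scavenger receptor repeats (ENSMUSG00000025185, GRCm38 chromosome 19, 42593982 to 42612813, minus strand). It had 4603, 4616 and 4477 normalised counts in 4T1 replicates 1 to 3, against 168, 216 and 240 in 4TO7 replicates 1 to 3. The 4T1 libraries were all high and close to each other, and the 4TO7 libraries all low, with no overlap. Means were 4565 ± 77.1 in 4T1 and 208 ± 36.4 in 4TO7 (SD, n = 3 each), and the log2 fold change was 4.46 ± 0.17 (SE) with a limma adjusted p of 3.17e-07. By size of fold change Loxl4 ranked 674 of the 14276 genes tested.

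Loxl3, a second member with scavenger receptor repeats (ENSMUSG00000000693, chromosome 6, 83034173 to 83052562, plus strand), ran the other way. It had 1235, 934 and 1100 normalised counts in 4T1 replicates 1 to 3, against 5274, 4291 and 5676 in 4TO7 replicates 1 to 3. All 4TO7 libraries lay above all 4T1 libraries, and 4TO7 replicate 2 was the lowest of its line. The log2 fold change was -2.22 ± 0.17 (SE; limma adjusted p = 1.58e-05). Exons of Loxl3 share 535 bases with Htra2, a mitochondrial protease gene on the opposite strand, and no source used here states if reads were counted by strand. Htra2 itself had 2468 ± 497 in 4T1 and 2475 ± 522 in 4TO7 (limma adjusted p = 0.993).

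Loxl1, the lysyl oxidase best known for elastic fibres (ENSMUSG00000032334, chromosome 9, 58287738 to 58313186, minus strand), was scarce. It had 36.3, 11.96 and 29.9 normalised counts in 4T1 replicates 1 to 3, against 0.94, 0 and 1.99 in 4TO7 replicates 1 to 3. Those values rest on 79 reads in 4T1 and 3 reads in 4TO7, a ratio of 26.3 with a 95% interval of 8.68 to 130 that covers counting error only. The lines did not overlap, and the log2 fold change was 3.78 ± 0.55 (SE; limma adjusted p = 0.000773). Without 4TO7 replicate 3, which held 2 of the 3 reads, the ratio of line means was 55.7.

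Lox, the founding lysyl oxidase (ENSMUSG00000024529, chromosome 18, 52516067 to 52529867), had 0 reads in every 4T1 library, a count that allows up to 3 reads over the line, and 1, 2 and 3 reads in 4TO7 replicates 1 to 3. Loxl2, a collagen IV crosslinker also studied in metastasis (ENSMUSG00000034205, chromosome 14, 69609068 to 69695834), had 4 reads in 4T1, all in replicate 3, and 0 reads in 4TO7. Neither gene passed the filter on low values, so neither is called here. In the authors' deposited table Lox has an adjusted p of 0.257 and Loxl2 has none.

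Plod1, the lysyl hydroxylase that acts on the helical part of collagen (ENSMUSG00000019055, chromosome 4, 147909753 to 147936767, minus strand), had 576, 554 and 684 normalised counts in 4T1 replicates 1 to 3, against 2999, 2750 and 3407 in 4TO7 replicates 1 to 3. Every 4TO7 library lay above every 4T1 library. Means were 605 ± 69.8 in 4T1 and 3052 ± 332 in 4TO7, and the log2 fold change was -2.33 ± 0.15 (SE; limma adjusted p = 7.39e-06).

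Plod2 hydroxylates the lysines of collagen telopeptides (ENSMUSG00000032374, chromosome 9, 92542223 to 92608428). It had 3296, 4196 and 5890 normalised counts in 4T1 replicates 1 to 3, against 5925, 5761 and 6464 in 4TO7 replicates 1 to 3. The lines overlapped, because 4T1 replicate 3 lay within the 4TO7 range. The log2 fold change was -0.48 with a 95% interval of -0.95 to -0.01, and it did not pass after adjustment (limma adjusted p = 0.0854). Plod2 shares 346 exon bases with Gm38391 on the opposite strand, which had 53.8 ± 1.77 in 4T1 and 85.9 ± 11.8 in 4TO7 and was called higher in 4TO7 (limma adjusted p = 0.045).

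Plod3, which also transfers sugars onto hydroxylysine (ENSMUSG00000004846, chromosome 5, 136987019 to 136996648), had 5467, 4158 and 4107 normalised counts in 4T1 replicates 1 to 3, against 5977, 5832 and 4686 in 4TO7 replicates 1 to 3. The ranges overlapped. The log2 fold change was -0.27 with an interval of -0.65 to 0.11 (limma adjusted p = 0.21), so a difference of either sign within that interval remains possible. Its exons share 529 bases with Znhit1 on the opposite strand, which had 1348 ± 255 in 4T1 and 1246 ± 88.9 in 4TO7 (limma adjusted p = 0.65).

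P4ha1, the main catalytic subunit of prolyl 4-hydroxylase in most cells (ENSMUSG00000019916, chromosome 10, 59323296 to 59373304), had the highest mean level per kilobase of the set in both lines. It had 4606, 3995 and 6349 normalised counts in 4T1 replicates 1 to 3, against 6586, 6252 and 8411 in 4TO7 replicates 1 to 3. 4T1 replicate 3 lay above 4TO7 replicate 2, so the lines overlapped. The log2 fold change was -0.52 with an interval of -0.98 to -0.07, and the gene missed the threshold (limma adjusted p = 0.0587).

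P4ha2, the alternative catalytic subunit (ENSMUSG00000018906, chromosome 11, 54100095 to 54131665), had 593, 578 and 774 normalised counts in 4T1 replicates 1 to 3, against 238, 419 and 421 in 4TO7 replicates 1 to 3. The lines did not overlap, and 4TO7 replicate 1 was lowest. Means were 648 ± 109 in 4T1 and 359 ± 105 in 4TO7, and the log2 fold change was 0.89 ± 0.26 (SE; limma adjusted p = 0.0224). This call was lost without 4T1 replicate 1 (limma adjusted p = 0.0555), 4T1 replicate 3 (0.0794) or 4TO7 replicate 1 (0.0658). The libraries of the lines did not overlap in 5 of the 8 enzymes tested (Loxl1, Loxl3, Loxl4, Plod1 and P4ha2), against 58.4% of all genes tested.

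**Figure D2:**
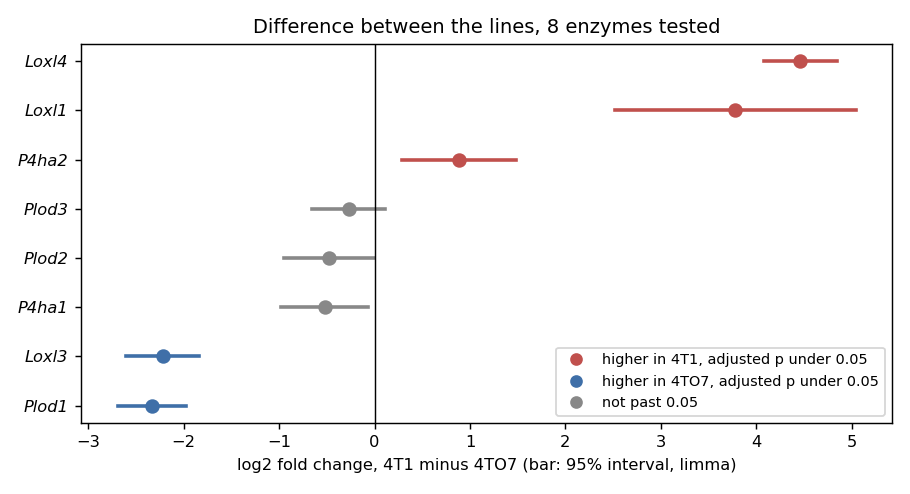
Log2 fold change (x axis, 4T1 minus 4TO7) of the 8 enzymes tested, with 95% intervals from limma; colour marks the line in which a gene was called higher at an adjusted p under 0.05. Loxl4 (4.46), Loxl1 (3.78) and P4ha2 (0.89) lie to the right, Loxl3 (-2.22) and Plod1 (-2.33) to the left, and Plod2, Plod3 and P4ha1 were not called.

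RefSeq windows before the start site were matched by symbol for 5 of the 10 enzymes (GRCm38.p6). Lox, Loxl1, Loxl2, Loxl3 and Plod2 had no window. The 3 shown are those of Loxl4 and Plod1, called in opposite directions, and of P4ha1, abundant in both lines. Each is the 250 bases before the start site, in the direction of the gene, and capitals mark the core letters of a HIF element, ACGTG or GCGTG on either strand, with overlapping matches allowed.
Loxl4 (chr19:42612807-42613056, minus strand): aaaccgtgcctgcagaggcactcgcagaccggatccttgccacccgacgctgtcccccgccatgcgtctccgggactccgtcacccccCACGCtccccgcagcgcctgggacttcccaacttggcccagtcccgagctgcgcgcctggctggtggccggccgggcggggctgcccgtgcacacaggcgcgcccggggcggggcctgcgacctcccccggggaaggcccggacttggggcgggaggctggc
Plod1 (chr4:147936777-147937026, minus strand): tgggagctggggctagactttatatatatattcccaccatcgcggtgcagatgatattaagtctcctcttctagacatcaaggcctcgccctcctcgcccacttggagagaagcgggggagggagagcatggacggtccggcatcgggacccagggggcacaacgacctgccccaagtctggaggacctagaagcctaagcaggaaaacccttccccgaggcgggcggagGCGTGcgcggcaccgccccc
P4ha1 (chr10:59323046-59323295, plus strand): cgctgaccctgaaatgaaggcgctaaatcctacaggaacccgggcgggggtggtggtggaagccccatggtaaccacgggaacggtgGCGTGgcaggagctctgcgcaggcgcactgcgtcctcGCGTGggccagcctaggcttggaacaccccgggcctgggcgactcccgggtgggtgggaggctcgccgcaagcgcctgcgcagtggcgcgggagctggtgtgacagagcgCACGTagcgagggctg
The letters occurred once in the Loxl4 window, at -162 from the start site, once in the Plod1 window, at -20, and 3 times in the P4ha1 window, at -163, -126 and -16. The Plod3 and P4ha2 windows held 4 and 3 matches. Of the 250 bases of the Plod3 window, 208 lay in annotated exons of any gene. The P4ha2 window (54100674 to 54100923) lay inside the P4ha2 locus given above. All 5 windows had a match, and so had 38.6% of the 32851 windows of the RefSeq table. Those windows were not matched to the 5 for base composition, so the shares show no enrichment. A match describes the letters and shows no binding.

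Levels of different genes can be compared only per length, so each value was divided by the merged exon length of the gene (GENCODE M21, GRCm38). In 4T1 the order of levels, in normalised counts per kilobase, was P4ha1 (1211 ± 297), Loxl4 (1084 ± 18.3), Plod3 (1013 ± 171), Plod2 (827 ± 244), Loxl3 (237 ± 32.8), P4ha2 (104 ± 17.5), Plod1 (89.4 ± 10.3) and Loxl1 (7.91 ± 3.83). The first 4 did not differ from their neighbours beyond their spread. The means of P4ha2 and Plod1 also lay within the SD of P4ha2. Library by library, however, P4ha2 was the higher of that pair (95.1, 92.6 and 124, against 85.2, 81.9 and 101 for Plod1). In 4TO7 the order was P4ha1 (1722 ± 283), Plod3 (1217 ± 157), Plod2 (1122 ± 68.2), Loxl3 (1104 ± 155), Plod1 (451 ± 49.0), P4ha2 (57.6 ± 16.9) and Loxl4 (49.4 ± 8.63), with Lox, Loxl1 and Loxl2 at 0.42 or less. Plod3, Plod2 and Loxl3 were within their spread of each other there, as were P4ha2 and Loxl4.

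Within the lysyl oxidase family the dominant transcript changed between the lines. Loxl4 made up 81.6 ± 2.31% of the family level per kilobase in 4T1 and 4.33 ± 0.92% in 4TO7, and Loxl3 made up 17.8 ± 2.03% in 4T1 and 95.6 ± 0.93% in 4TO7 (SD, n = 3 each). The family total differed far less than its parts, at 1328 ± 37.9 normalised counts per kilobase in 4T1 and 1154 ± 156 in 4TO7. Its lowest 4T1 library (1302) and highest 4TO7 library (1291) were almost level.

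Among the lysyl hydroxylases, Plod1 took 4.63 ± 0.17% of the family level in 4T1 and 16.2 ± 1.94% in 4TO7. Plod2 and Plod3 shared the rest in both lines. Plod2 held 42.6 ± 9.99% in 4T1 and 40.3 ± 3.04% in 4TO7, and Plod3 held 52.8 ± 10.2% in 4T1 and 43.6 ± 4.95% in 4TO7, so these shares overlapped. The family total was 1930 ± 162 normalised counts per kilobase in 4T1 and 2790 ± 66.2 in 4TO7, with no overlap. Of P4ha1 and P4ha2 together, P4ha2 made up 7.99 ± 0.65% in 4T1 and 3.25 ± 0.96% in 4TO7. The sum of that pair overlapped between the lines (1315 ± 314 in 4T1 and 1779 ± 289 in 4TO7). Shares and totals are descriptions without a test.

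**Figure D3:**
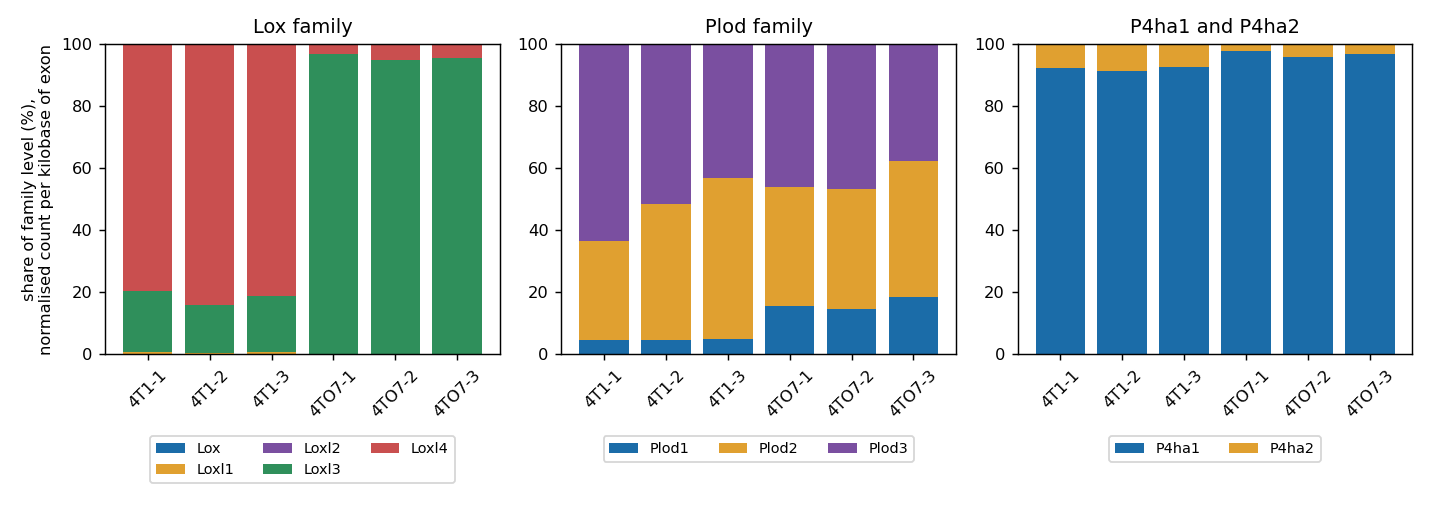
Share of each enzyme in its family level (y axis, percent of the summed normalised counts per kilobase of exon) in each library, 4T1 libraries left and 4TO7 libraries right. Loxl4 fills 79.6 to 84.2% of the lysyl oxidase bars in 4T1, and Loxl3 fills 94.8 to 96.6% in 4TO7.

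Of 8 prolyl hydroxylation partners tested, 2 passed as higher in 4T1 and 3 as higher in 4TO7. With 49% of all genes called, the counts of this and the following lists are given as descriptions and set no list apart. Their median log2 fold change was -0.34, against 0.03 over all genes tested. P3h4, which in mice forms a complex with Plod1 and P3h3, had 110, 112 and 105 normalised counts in 4T1 replicates 1 to 3, against 0.94, 1.05 and 1.00 in 4TO7 replicates 1 to 3. The 3 reads in 4TO7 give a ratio of 110 (95% interval 37.3 to 536). It was high in the line where Plod1 was low. P3h2, a prolyl 3-hydroxylase, was 14.2-fold higher in 4T1 at 324 ± 62.9 against 22.8 ± 16.0 in 4TO7, and 22.2-fold higher without 4TO7 replicate 1. P3h1, the prolyl 3-hydroxylase that works with Crtap, was 3.42-fold higher in 4TO7, at 680 ± 88.1 in 4T1 and 2327 ± 368 in 4TO7. The limma adjusted p-values of P3h4, P3h2 and P3h1 were 1.15e-06, 0.000408 and 6.88e-05. P4hb, the shared subunit of prolyl 4-hydroxylase and chosen after its value was seen, had 25580 ± 2265 in 4T1 and 34377 ± 1059 in 4TO7 (limma adjusted p = 0.018), a call lost without 4T1 replicate 2 (0.0582), 4T1 replicate 3 (0.0648), 4TO7 replicate 1 (0.0561) or 4TO7 replicate 3 (0.0689).

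Of 9 collagen chaperones and glycosyltransferases tested, 1 passed as higher in 4T1 and 5 as higher in 4TO7 (median log2 fold change -0.66). Fkbp14, a prolyl isomerase of the endoplasmic reticulum, was higher in 4TO7, at 159 ± 51.3 in 4T1 and 1431 ± 540 in 4TO7 (limma adjusted p = 0.000209). Sec23a, a coat protein of the vesicles that export procollagen, was 2.99-fold higher in 4TO7, and Sparc, a collagen-binding secreted protein, was 2.18-fold higher (limma adjusted p = 0.000299 and 0.00256). Serpinh1, the collagen chaperone HSP47, and Colgalt1, a galactosyltransferase for hydroxylysine, were named after their values were seen and did not pass. Serpinh1 had 10140 ± 1110 in 4T1 and 12391 ± 747 in 4TO7, and Colgalt1 had 5997 ± 398 in 4T1 and 6045 ± 388 in 4TO7. Slc39a13, a zinc transporter also named afterwards, was the gene higher in 4T1 (1.45-fold, limma adjusted p = 0.0471), a call lost without 4T1 replicate 1 (0.134), 4T1 replicate 3 (0.0936), 4TO7 replicate 1 (0.156) or 4TO7 replicate 3 (0.131).

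Of 8 procollagen processing genes 4 were tested, and 2 passed in each direction (median log2 fold change -0.10). Pcolce2, an enhancer of procollagen cleavage, was 3.84-fold higher in 4T1 at 4873 ± 1069 against 1270 ± 793 in 4TO7 (limma adjusted p = 0.00432). Adamts14, a protease that removes the amino-terminal propeptide, was 2.21-fold higher in 4TO7 (limma adjusted p = 0.00156). Pcolce, the other enhancer, was 1.69-fold higher in 4TO7 (limma adjusted p = 0.0446), a call lost when any library other than 4TO7 replicate 2 was left out (0.068 to 0.141). Bmp1, which also activates the Lox proenzyme, was named after its value was seen. It was 1.42-fold higher in 4T1 (limma adjusted p = 0.0259), a call lost without 4T1 replicate 1 (0.0732), 4T1 replicate 3 (0.0798) or 4TO7 replicate 1 (0.0732).

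The substrates themselves were unlike in the lines. Of 10 substrate genes 6 were tested, and 3 passed in each direction (median log2 fold change -1.53). Eln, the elastin gene, had 0 reads in 4T1, against 753, 91.2 and 1139 normalised counts in 4TO7 replicates 1 to 3. It was at least 679-fold higher in 4TO7 (at least 445-fold without 4TO7 replicate 3 and 447-fold without 4T1 replicate 3), with 4TO7 replicate 2 far below the others. Col5a3, a collagen V chain, was 24.3-fold higher in 4TO7 at 4.55 ± 4.42 in 4T1 and 111 ± 49.7 in 4TO7, and 55.1-fold higher without 4T1 replicate 3. Col5a1, another collagen V chain and named after its value was seen, was 6.30-fold higher in 4T1, at 1341 ± 218 in 4T1 and 213 ± 97.3 in 4TO7 (limma adjusted p = 0.000263). Col11a1 had 0 reads in 4T1 and 18.02 ± 4.00 normalised counts in 4TO7, at least 18.4-fold higher (12.1-fold without 4T1 replicate 3). The limma adjusted p-values of Eln, Col5a3 and Col11a1 were 6.17e-05, 0.000348 and 2.54e-05. Chosen after their values were seen, Col1a1 had 9.08, 8.97 and 12.6 normalised counts in 4T1 replicates 1 to 3, against 6.55, 1.05 and 4.98 in 4TO7 replicates 1 to 3, and Col3a1 had 0 reads in all 6 libraries. Col4a1, the abundant basement membrane chain and likewise chosen afterwards, had 21923 ± 1124 in 4T1 and 10148 ± 3974 in 4TO7 (limma adjusted p = 0.00964).

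Of 6 other crosslinkers and lysyl oxidase partners tested, 2 passed as higher in 4T1 and 3 as higher in 4TO7 (median log2 fold change 0.53). Tgm2, a transglutaminase that crosslinks matrix proteins, had 1675, 1256 and 2142 normalised counts in 4T1 replicates 1 to 3, against 15068, 4032 and 18843 in 4TO7 replicates 1 to 3. It was 7.48-fold higher in 4TO7 (limma adjusted p = 0.00348), with 4TO7 replicate 2 low. F13a1, the plasma transglutaminase, was 7.99-fold higher in 4T1 at 64.5 ± 16.2 against 8.07 ± 4.98 in 4TO7 (limma adjusted p = 0.00108). Fn1, fibronectin, which binds lysyl oxidase, was 2.94-fold higher in 4T1 (limma adjusted p = 0.00269).

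For copper and ascorbate supply, 4 of 5 genes were tested, and 0 passed as higher in 4T1 and 1 as higher in 4TO7 (median log2 fold change -0.09). Atp7a, the pump that loads copper into secreted enzymes, had 292, 868 and 899 normalised counts in 4T1 replicates 1 to 3, against 1916, 1182 and 1648 in 4TO7 replicates 1 to 3 (limma adjusted p = 0.0276). It no longer passed without 4TO7 replicate 1 (0.0835) or without replicate 3 (0.0661) of 4TO7.

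**Figure D4:**
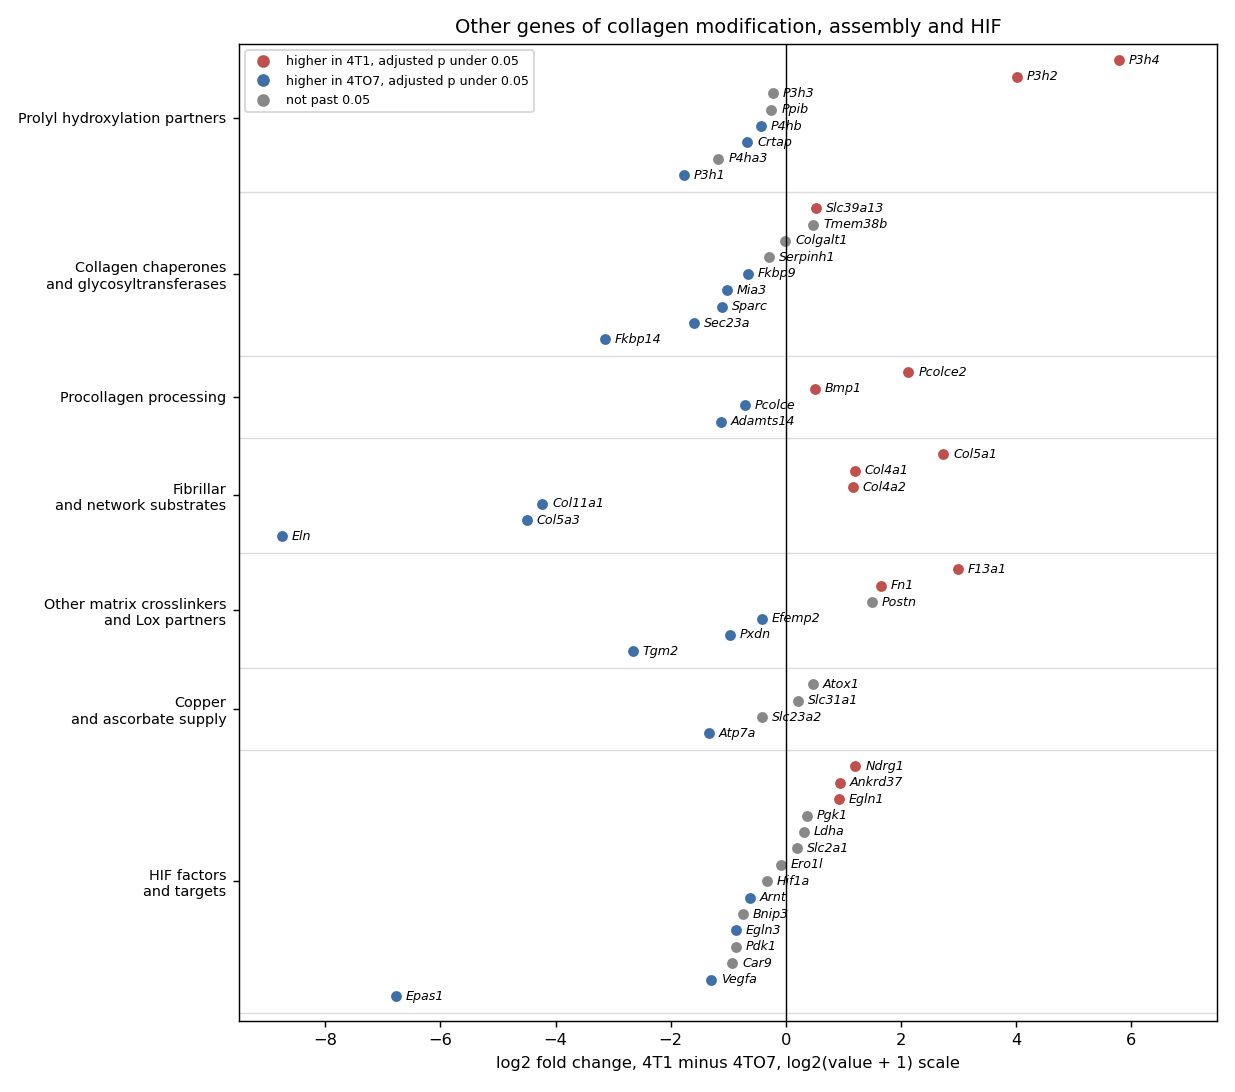
Log2 fold change (x axis, 4T1 minus 4TO7, on the log2(value + 1) scale) of the 52 tested genes in the lists of collagen modification, processing, substrates, crosslinkers, cofactors and HIF, 1 point per gene. P3h4 and P3h2 lie far to the 4T1 side, and Eln, Epas1, Col5a3, Col11a1 and Fkbp14 far to the 4TO7 side.

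Of 15 HIF factors and targets tested, 3 passed as higher in 4T1 and 4 as higher in 4TO7 (median log2 fold change -0.32), close to the 25.1% and 23.9% of all genes. Epas1, which encodes HIF-2 alpha, had 2.02, 6.97 and 4.83 normalised counts in 4T1 replicates 1 to 3, against 855, 181 and 1189 in 4TO7 replicates 1 to 3. It was 161-fold higher in 4TO7 (limma adjusted p = 9.53e-05). Vegfa, the angiogenic factor, was 2.47-fold higher in 4TO7 (limma adjusted p = 0.004). Ndrg1, a hypoxia-induced gene, was 2.29-fold higher in 4T1 (limma adjusted p = 0.0351), a call lost without 4T1 replicate 2 (0.0921), 4T1 replicate 3 (0.11), 4TO7 replicate 1 (0.0974) or 4TO7 replicate 2 (0.0664). Hif1a, named after its value was seen, had 11139 ± 2328 in 4T1 and 13734 ± 1659 in 4TO7 (limma adjusted p = 0.171).

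Replicate 3 of each line was the highest library for many of the enzymes and of the HIF genes. 4T1 replicate 3 was the highest 4T1 library for 12 of the 15 HIF genes and for 4 of the 8 enzymes tested (Plod1, Plod2, P4ha1 and P4ha2), against 32.1% of all genes tested. In 4TO7, replicate 3 was the highest library for 11 of the 15 HIF genes and 7 of the 8 enzymes, Plod3 being the exception, against 32.4% of all genes tested. Of the markers tested, 4TO7 replicate 3 was also highest for 4 of 4 epithelial, 2 of 2 fibroblast and 1 of 1 leukocyte markers. The epithelial markers did not share this in 4T1, where replicate 3 was highest for 1 of 4. It was highest there for 2 of 2 fibroblast and 1 of 1 leukocyte markers. Replicate 3 was highest for 4 of 6 other crosslinkers in either line, and for 4 of 9 chaperones in 4T1 and 5 of 9 in 4TO7. The remaining lists were mixed. In 4T1, replicate 3 was highest for 0 of 8 prolyl hydroxylation partners and 0 of 4 procollagen processing genes, against 3 of 8 and 3 of 4 in 4TO7. For substrates the counts were 2 of 6 in 4T1 and 3 of 6 in 4TO7. For copper and ascorbate supply they were 2 of 4 and 0 of 4. In 4T1 replicate 3, Plod2 lay 0.44 and P4ha1 0.38 above the 4T1 mean on the log2(value + 1) scale. The 15 HIF genes ranged there from -0.02 (Hif1a) to 0.92 (Bnip3). Pdk1 (0.78) was among the highest, while Egln1 (0.06) and Arnt (0.10) lay close to the 4T1 mean. These HIF genes were named after their values were seen. Without 4T1 replicate 3, Plod2 and P4ha1 had log2 fold changes of -0.70 and -0.71 and passed (limma adjusted p = 0.0151 and 0.02). The part of the HIF genes and of the markers in this was not tested.

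**Figure D5:**
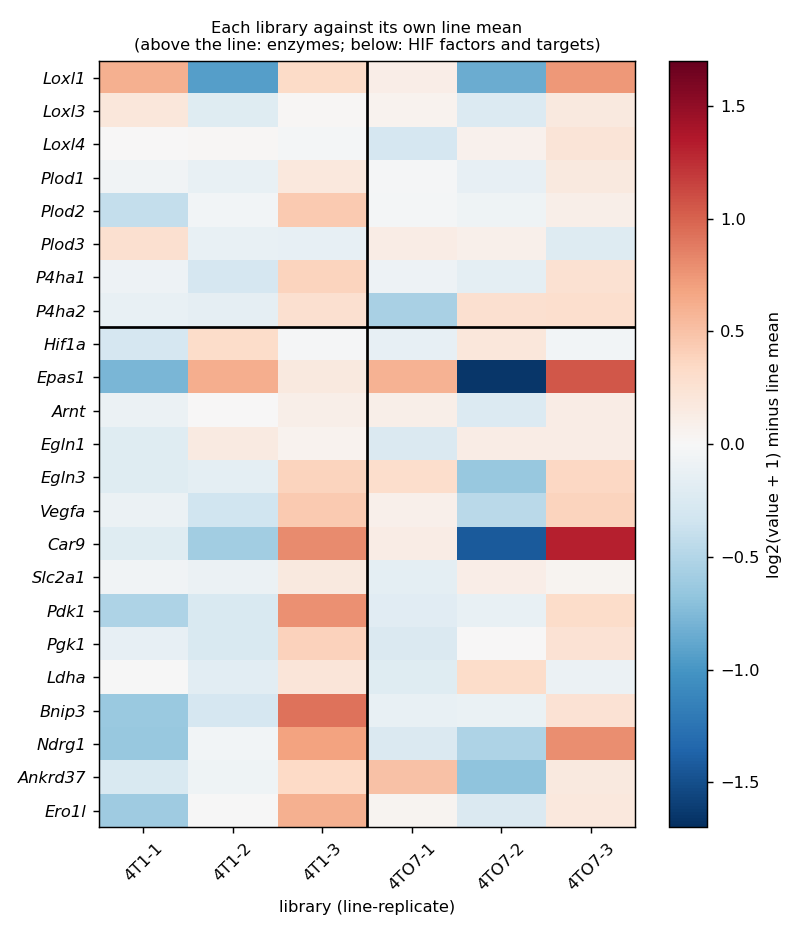
Deviation of each library from the mean of its own line (colour, log2(value + 1) scale) for the 8 enzymes tested, above the black line, and the 15 HIF genes, below it, with 4T1 libraries left and 4TO7 libraries right. 4T1 replicate 3 is red for Plod2, P4ha1, P4ha2, Pdk1 and Bnip3, and close to the line mean for Hif1a (-0.02) and Egln1 (0.06). Loxl4 lies within 0.03 of its line mean in 4T1 but between -0.29 and 0.22 in 4TO7.

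The authors' deposited table holds their own comparison, whose log2 fold changes are 4TO7 over 4T1, the opposite sign to those above. It lists -4.46 for Loxl4, 2.22 for Loxl3, 2.34 for Plod1, -4.72 for Loxl1 and -0.85 for P4ha2. In the authors' deposited table P4ha1, Plod2 and Plod3 have adjusted p-values of 0.068, 0.132 and 0.308.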

How the data were processed

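The deposited table holds normalised signal for 6 libraries: counts of reads per gene, which its name describes as normalised relative to library size. The size factors recovered from the values did not follow the read totals. 4TO7 replicate 1 had 36191540 reads and a factor of 1.07, and 4T1 replicate 2 had 38789319 reads and a factor of 1.00. The submitters' processing notes name STAR 2.5, featureCounts 1.5, DESeq2 and GRCm38, but the sources used here give neither the annotation release nor the use of strand. The authors also deposited their own log2 fold change, its standard error and test score, with raw and adjusted p-values.

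Dividing by the smallest step of each library gave whole reads for 100% of values (within 1e-06), and these were used as counts; in 3 libraries the step lay close to 1. limma 3.58.1 in R 4.3.3 compared the lines on log2(value + 1) with an intensity trend and robust moderation, group alone, two-sided; fold changes are 4T1 minus 4TO7 and understate changes of low genes. edgeR 4.0.16 and DESeq2 1.42.0 on the recovered reads, other pseudocounts, filters and scalings, each library left out and a replicate block were alternatives. The fits were also run on simulated data with far fewer changed genes than were called here, so that run does not measure their accuracy in this comparison. Averaged over genes, libraries of the same line differed by more than sampling noise. The lowest mean chi-square of any such pair of libraries was 24.8, and single genes can lie below it.

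The enzymes, lists and tests were chosen with earlier results of these data known. The rule named all 10 enzymes and, per list, up to 3 called genes with the largest fold change; others are said to be named afterwards. A planned search for genes with a profile like that of Lox was not made, because Lox missed the filter. Itgam, listed on 2 rows, was left out. No protein sequences were used here.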

Additional observations from a re-analysis of the deposited data

How the results depend on the processing

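Among the recomputed fold changes of the 8 enzymes, 113 kept their direction and side of the threshold, 11 newly passed it, 3 no longer passed and 0 changed sign. Loxl4 (4.32 to 4.57), Loxl3 (-2.35 to -2.11) and Plod1 (-2.46 to -2.25) were called under each alternative run. Loxl1 (2.29 to 5.30, widest with the pseudocount) was called wherever it was tested, but a minimum value of 50 in 3 libraries removed it, leaving 2 enzymes higher in 4T1. Equal totals per library moved the median log2 fold change of all genes to -0.10, from 0.03 with the authors' size factors. Under it Plod2 was -0.61 and P4ha1 -0.65 and both passed, yet relative to that median they were -0.51 and -0.56, against -0.51 and -0.55 before. Quantile normalisation gave -0.60 and -0.65, both passing, and P4ha1 also passed with edgeR (-0.54) and DESeq2 (-0.52). Enzymes higher in 4TO7 then numbered 4 with equal totals, with quantile normalisation and with the replicate block.

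Leaving out each library gave 2 to 4 enzymes higher in 4TO7, and log2 fold changes of -0.71 to -0.38 for P4ha1, -0.70 to -0.28 for Plod2 and 0.61 to 1.02 for P4ha2. List counts higher in 4T1 ranged from 0 to 2 for chaperones, 1 to 2 for procollagen processing and 1 to 2 for HIF genes. Those higher in 4TO7 ranged from 2 to 5 for prolyl hydroxylation partners and 3 to 6 for HIF genes. They ranged from 1 to 2 for procollagen processing and 0 to 1 for copper and ascorbate supply. With edgeR, 0 chaperone genes were higher in 4T1.

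Same-numbered libraries of the lines correlated in their deviations at -0.0135, 0.266 and 0.328, against -0.391 to 0.269 for libraries with different numbers. Not every library correlated best with its own number. So few correlations cannot decide if the numbers pair the libraries. With the replicate block, Plod2 (-0.48) and P4ha1 (-0.52) passed, 0 chaperone genes were higher in 4T1, copper and ascorbate supply had 1 gene called for 4T1 and 2 for 4TO7, and 7 HIF genes were higher in 4TO7.

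Without division by length, the share of Plod1 was 6.27% in 4T1 and 20.9% in 4TO7, that of Plod3 37.7% in 4TO7, that of P4ha1 88.4% in 4T1 and 95.2% in 4TO7, and that of P4ha2 11.6% in 4T1 and 4.84% in 4TO7. Depth limits Lox, Loxl1 and Loxl2, and intervals on reads cover counting error only. In 4TO7 replicate 2, Eln, Tgm2 and Epas1 lay far below the other 4TO7 libraries.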
